A study of Mus musculus with 12 samples.

Results

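The genes described here encode integrin subunits of mouse CD4+ T cells and were chosen by name: Itgae, Itga4, Itgal, Itgav, and Itga6 for α chains, and Itgb7, Itgb1, Itgb2, Itgb3, and Itgb8 for β chains. Of the 10 genes, 9 have a row among the 11247 genes that the FPKM tables list, and all 9 were tested in both comparisons. Itgb8, the β chain that with αV releases active TGFβ, has no row, and no value is given for it. mRNA was sequenced in 12 libraries of naive splenic CD4+ T cells from C57BL/6 mice of 8 to 10 weeks, cultured for 3 d, with 4 libraries for each of 3 groups. All cells were activated with antibodies against CD3 and CD28 (1 μg/ml each). Th0 cells received no polarizing cytokine. Th17 cells also received 30 ng/ml IL6, 5 ng/ml TGFβ1, and antibodies that block IL4 and IFNγ (10 μg/ml each). The iTreg (induced regulatory T cell) cultures also received 10 ng/ml IL2 and, according to the labels, 10 ng/ml TGFβ1, for which the study's methods give another concentration. Both polarized groups thus differed from Th0 cells by several agents at once, and the effect of TGFβ1 alone cannot be told apart from that of the others.

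Integrins are adhesion receptors made of an α and a β chain, which reach the cell surface as a pair, and the partners decide which ligand is bound. αLβ2 (LFA-1) holds a T cell to ICAM-bearing cells, α4β1 and α4β7 support entry into inflamed tissue and gut through VCAM1 and MAdCAM1, αEβ7 (CD103) binds E-cadherin on epithelium, α6β1 binds laminin, and the αV integrins bind RGD-containing matrix and latent TGFβ. The receptors switch from a resting to a ligand-binding form when talin and kindlin bind the tail of the β chain, downstream of the T cell receptor and the small GTPase Rap1. A message level of a chain is not a surface level of a receptor, and only mRNA was measured here.

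Itgae was the subunit with the largest change. It was close to the lower end of detection in Th0 cells and rose in both Th17 and iTreg cells, whereas Itga4 fell in both. For the β chains Itgb7, Itgb1, and Itgb2 and for Itgav, calls depended on whether differences shared by libraries of the 3 groups were taken into account. Itgb3 passed the threshold in iTreg cells either way, as a decrease, and its call in Th17 cells depended on these differences. Itgal and Itga6 did not pass the test in either comparison.

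FPKM, reads scaled for library size and transcript length, were used as the authors deposited them. Low FPKM values lie on steps of whole reads, from which 7182208 to 10628620 reads per library on the listed genes were recovered. Relative depth within a table ranged from 0.825 to 1.19 of the median library. The headings of the FPKM columns begin with M22, M29, M42, or M43, and each beginning occurs once in every group. The meaning of these beginnings is not stated in the sources, but libraries with a shared beginning deviated together from their group means across genes. Log2(FPKM + 1) was therefore compared with limma both without a term for the heading and with one, and the first of these is the comparison meant where neither is named. An adjusted p comes from limma with Benjamini-Hochberg adjustment over all tested genes, with a threshold of 0.05. The added 1 makes fold changes of weakly expressed genes smaller than those of their FPKM. The replicates of a group are independent cultures per the study's methods. Without the term, the p-values set a change against the spread between libraries of a group, which includes what libraries of a heading share. With the term, they set it against the spread of the differences within headings.

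The polarized libraries were checked with lineage genes. Il17f, a Th17 cytokine, was at 281 to 788 FPKM in the Th17 and at most 0.184 FPKM in the Th0 libraries, and Foxp3, the regulatory T cell transcription factor, was at 62.0 to 91.7 FPKM in the iTreg and at most 7.24 FPKM in the Th0 libraries. The Th17 library M43_5 stood apart with 42.5 FPKM of Foxp3, where the other Th17 libraries had 0.499 to 4.50 FPKM. The iTreg libraries held 26.9 to 99.2 FPKM of Il17f. Of 8 T cell markers, 7 were listed, with a summed level of 1017 to 2206 FPKM in Th0, 835 to 1509 FPKM in Th17, and 1021 to 1662 FPKM in iTreg libraries. No NK cell marker of 5 was listed, and 1 of 6 B cell markers (Cd79a) was, at 0.646 to 3.84 FPKM in Th0 libraries. In a bulk sample, fewer cells of a type and less RNA per cell cannot be told apart.

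The libraries whose heading begins with M42 were low for the integrin genes in each group. In Th0 cells, M42_1 was the lowest library for 8 of the 9 genes, while it was the lowest for 28.7% of all tested genes of the Th17 table. In Th17 cells, M42_5 was the lowest for 9 of 9 genes, against 31.1% of all tested genes, and in iTreg cells M42_4 was the lowest for 9 of 9, against 26.1%. Compared with the mean of the other 3 libraries of its group, the median integrin gene differed by -1.12 on the log2 scale in M42_1, by -1.03 in M42_5, and by -1.24 in M42_4, where the median over all tested genes differed by -0.01, -0.01, and 0.01. The summed T cell markers were also lowest in the M42 libraries, at 1017 FPKM in Th0, 835 FPKM in Th17, and 1021 FPKM in iTreg cells, while all other libraries had at least 1322 FPKM. Its part in the integrin values was not tested. A term for the heading removes from a comparison the shift of a gene that the M42 libraries of both groups share.

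**Figure D1:**
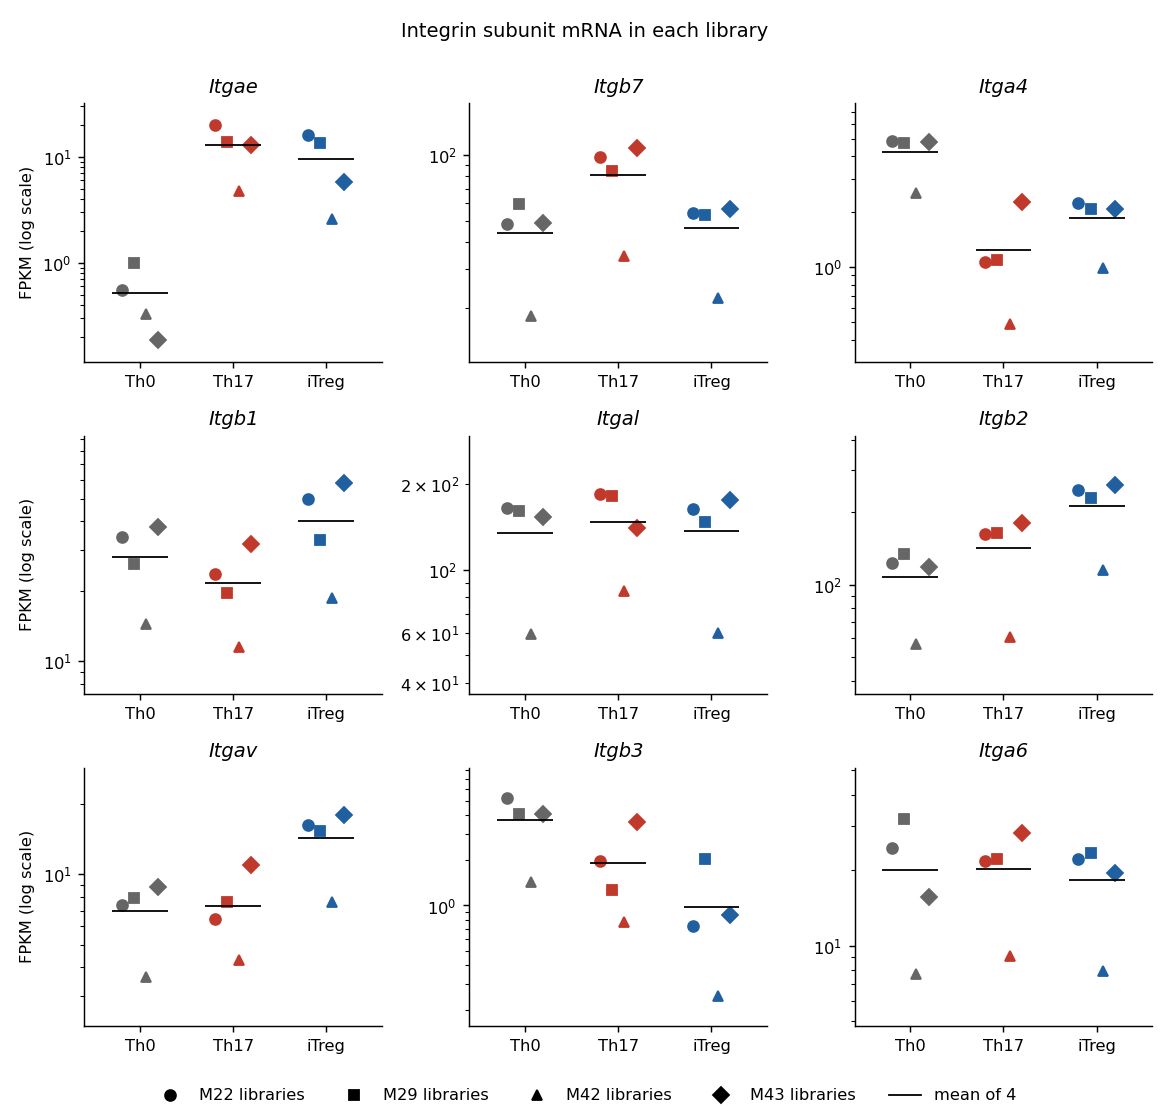
FPKM of each integrin subunit gene (log axes, a scale of its own per gene) in the 4 Th0, 4 Th17, and 4 iTreg libraries, with marker shapes for the beginning of the column heading and a bar at the mean. Itgae rose from 0.187 to 1.00 FPKM in Th0 libraries to at least 2.62 FPKM in every polarized library, and the M42 libraries (triangles) lie lowest in 26 of the 27 groups of 4.

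Itgae encodes αE, the chain that marks tissue-resident T cells of epithelia, and spans 73090583 to 73147446 of chromosome 11 in GRCm38 (plus strand, GENCODE annotation). In Th0 cells, Itgae was at 0.555 (M22_1), 1.00 (M29_1), 0.331 (M42_1), and 0.187 FPKM (M43_1), which corresponds to 19, 36, 14, and 8 reads. In Th17 cells the same order of headings gave 20.02, 13.9, 4.74, and 12.9 FPKM, or 747, 613, 190, and 530 reads. The iTreg libraries had 16.2, 13.5, 2.62, and 5.77 FPKM, or 808, 611, 108, and 236 reads. Every polarized library was above every Th0 library, and the M42 library was the lowest of both polarized groups. Between libraries with a shared heading, Itgae was 13.9 to 68.7 times as high in Th17 as in Th0 cells and 8.01 to 31.1 times as high in iTreg as in Th0 cells. On the log2(FPKM + 1) scale its fold change was 3.08 in Th17 cells (95% confidence interval 2.25 to 3.91, adjusted p = 0.00053 from limma) and 2.57 in iTreg cells (1.53 to 3.62, adjusted p = 0.0060 from limma). Itgae passed the filter on low values (over 1 FPKM in at least 4 of 8 libraries) through its polarized libraries. With a heading term, the adjusted p from limma was 0.00032 and 0.00084. Without the library M43_5 the log2 fold change in Th17 cells was 3.03 (adjusted p = 0.0025 from limma).

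Itgb7 encodes the β chain shared by αEβ7 and α4β7 and lies on chromosome 15 from 102215995 to 102231944 on the minus strand. In Th0 cells it was at 48.1, 59.8, 18.3, and 48.9 FPKM, in the order M22, M29, M42, and M43 that is kept from here on. In Th17 cells it was at 97.4, 84.2, 34.6, and 107 FPKM, and in iTreg cells at 54.3, 53.0, 22.3, and 56.6 FPKM. The M42 library of Th17 cells was below 3 of the 4 Th0 libraries, so the groups overlapped, but within each heading Th17 was above Th0, by 1.41 to 2.20 times. The log2 fold change of 0.87 in Th17 cells had an adjusted p of 0.21 from limma without a heading term and 0.0021 with it (95% confidence interval 0.59 to 1.16). Leaving out M42_5 alone also brought the fit without the term past the threshold (1.23, adjusted p = 0.046 from limma). In iTreg cells the log2 fold change was 0.13, with an adjusted p of 0.87 and 0.27 from limma and an interval of -0.08 to 0.35 with a heading term. Itgae and Itgb7 together thus rose in Th17 cells when headings were accounted for, and only Itgae passed the test in iTreg cells. Whether the change of Itgb7 differed between Th17 and iTreg cells was not tested. The values were scaled separately for each table, and both comparisons share the Th0 libraries.

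Itga4 encodes α4, the chain that pairs with β1 or β7 in receptors for VCAM1 and MAdCAM1, and lies on chromosome 2 from 79255426 to 79333123 on the plus strand. In Th0 cells it was at 4.86, 4.75, 2.52, and 4.81 FPKM. It was at 1.07, 1.10, 0.487, and 2.27 FPKM in Th17 cells and at 2.23, 2.08, 0.993, and 2.07 FPKM in iTreg cells. The highest polarized library was below the lowest Th0 library in both comparisons, although the gap to M42_1 was small. The log2 fold change was -1.26 in Th17 cells (95% confidence interval -1.84 to -0.67, adjusted p = 0.0096 from limma) and -0.86 in iTreg cells (-1.35 to -0.37, adjusted p = 0.027 from limma), and with a heading term the adjusted p was 0.00065 and 0.00014 from limma. The 4 differences within headings lay close together in iTreg cells, from -0.91 to -0.81, and ranged from -1.50 to -0.83 in Th17 cells. Without a heading term, the iTreg call was lost when M22_1, M29_1, M43_1, or M42_4 was left out (adjusted p 0.075, 0.061, 0.071, and 0.051 from limma). Another gene, Cerkl, covers 8.04% of the exonic bases of Itga4, and reads there cannot be assigned without the strand.

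Itgb1 encodes β1, the common partner of α4, α6, αV, and many matrix-binding α chains, and lies on chromosome 8 from 128685654 to 128733200 on the plus strand. It was at 34.3, 26.2, 14.5, and 37.7 FPKM in Th0, 23.7, 19.7, 11.6, and 31.9 FPKM in Th17, and 49.8, 33.1, 18.8, and 58.3 FPKM in iTreg cells. The groups overlapped, but within every heading the order was the same, with the Th17 library lowest and the iTreg library highest. The log2 fold change was -0.36 in Th17 cells, with an adjusted p of 0.52 from limma without a heading term and 0.016 with it (95% confidence interval -0.56 to -0.16). In iTreg cells it was 0.47, with an adjusted p of 0.48 and 0.0038 from limma and an interval of 0.28 to 0.65 with the term. The Th17 call with the term was lost when the M22 or the M42 libraries were left out (adjusted p up to 0.074 from limma), and the iTreg call was kept without the libraries of any 1 heading.

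**Figure D2:**
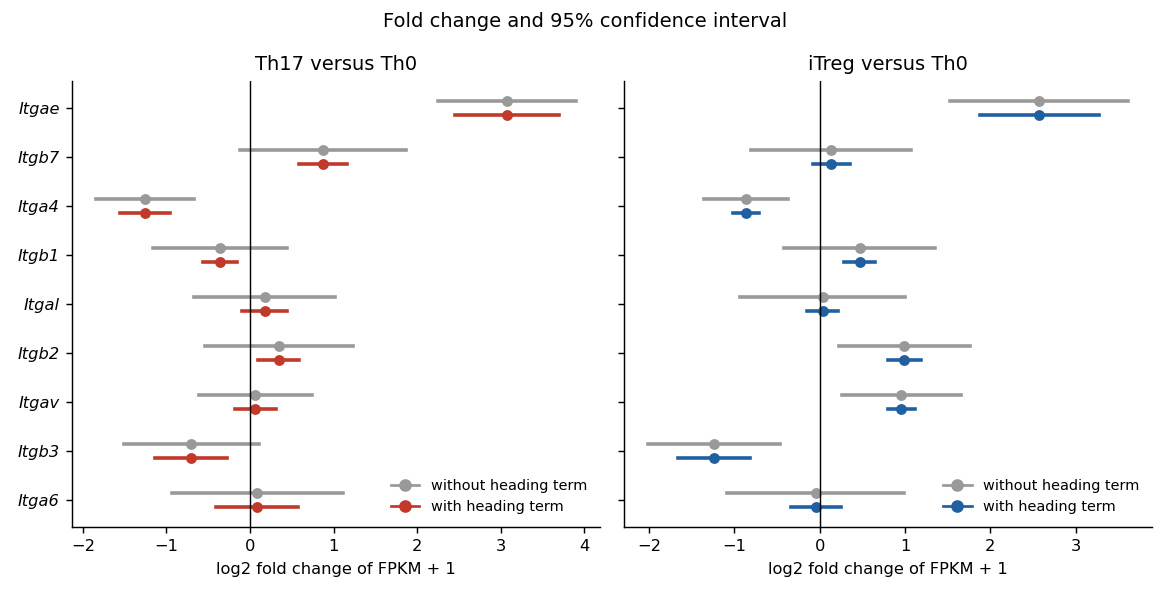
Log2 fold change of FPKM + 1 of each integrin subunit gene in Th17 (left) and iTreg cells (right) versus Th0 cells, with 95% confidence intervals from limma without (grey) and with (coloured) a term for the beginning of the column heading. The Itgae and Itga4 intervals lie off 0 in both fits, while those of Itgb7 in Th17 cells and Itgb1 in both comparisons do so only with the term. In iTreg cells, the intervals of Itgb2, Itgav, and Itgb3 lie off 0 in both fits as well. Unlike the adjusted p, the intervals are not adjusted for the number of tested genes.

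Sequence upstream of the gene start is shown for the members that passed the test in a comparison with the heading term and that have an entry in the RefSeq promoter table of GRCm38.p6 (5 of the 10 genes matched, with Itgb8). Itgae, Itgal, Itgb2, Itgb3, and Itga6 have none there. The 250 bases before the start were searched on both strands for CAGAC, a core of SMAD sites, TGTGGT, a core of RUNX sites, and TTCNNNGAA, a core of STAT sites, since TGFβ1 signals through SMAD proteins and IL6 and IL2 through STAT proteins. Capitals mark the matches, and GTCTG and ACCACA are the reverse complements of the first and the second motif. The sequences run 5′ to 3′ along the gene's strand. Itgb7 is at chr15:102231936-102232185 (minus strand), Itga4 at chr2:79255176-79255425, Itgb1 at chr8:128685404-128685653, and Itgav at chr2:83724147-83724396 (all plus strand). For Itgb7, the RefSeq start lies inside the gene as annotated by GENCODE, so its stretch overlaps the span given above. Distances are counted from the RefSeq start.
Itgb7: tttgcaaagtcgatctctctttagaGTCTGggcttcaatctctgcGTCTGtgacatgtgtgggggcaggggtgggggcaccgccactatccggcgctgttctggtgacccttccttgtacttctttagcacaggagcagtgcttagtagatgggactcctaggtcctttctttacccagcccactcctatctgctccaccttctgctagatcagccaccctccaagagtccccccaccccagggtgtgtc
Itga4: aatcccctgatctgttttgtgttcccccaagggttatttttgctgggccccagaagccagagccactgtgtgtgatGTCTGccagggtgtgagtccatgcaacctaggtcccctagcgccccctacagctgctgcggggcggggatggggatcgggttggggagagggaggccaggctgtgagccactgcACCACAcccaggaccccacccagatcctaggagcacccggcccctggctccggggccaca
Itgb1: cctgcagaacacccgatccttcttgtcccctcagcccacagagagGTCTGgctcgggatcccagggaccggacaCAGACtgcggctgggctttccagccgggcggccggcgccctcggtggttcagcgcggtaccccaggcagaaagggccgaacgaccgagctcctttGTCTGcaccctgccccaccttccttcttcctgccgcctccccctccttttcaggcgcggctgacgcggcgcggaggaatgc
Itgav: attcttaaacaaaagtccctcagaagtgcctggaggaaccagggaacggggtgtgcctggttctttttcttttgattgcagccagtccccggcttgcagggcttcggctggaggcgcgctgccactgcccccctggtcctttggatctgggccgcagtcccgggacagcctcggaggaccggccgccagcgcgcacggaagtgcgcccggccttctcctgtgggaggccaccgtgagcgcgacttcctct
CAGAC was matched 2 times upstream of Itgb7, at 225 to 221 and 205 to 201 bases before the start, 1 time upstream of Itga4, and 3 times upstream of Itgb1. TGTGGT was matched 1 time, upstream of Itga4 at 60 to 55 bases before the start, and TTCNNNGAA in none of the 4 sequences. No motif was matched upstream of Itgav. Of 32851 promoters of the same length, 42.2% hold CAGAC, 14.05% hold TGTGGT, and 7.02% hold TTCNNNGAA, so a match to the first motif is common. The matches describe the letters and were not tested for binding.

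Itgal and Itgb2 encode αL and β2, the chains of LFA-1, and had the highest FPKM of the 9 genes in all 3 groups. Itgal (chromosome 7, 127296260 to 127335138, plus strand) was at 165, 161, 59.3, and 153 FPKM in Th0, 185, 180, 84.3, and 140 FPKM in Th17, and 163, 147, 60.1, and 175 FPKM in iTreg cells. The groups overlapped almost completely, and the direction within headings was mixed in both comparisons. Its log2 fold change was 0.17 in Th17 cells (adjusted p = 0.79 from limma, 0.27 with a heading term) and 0.03 in iTreg cells (adjusted p = 0.97 and 0.75 from limma). With the term, the 95% confidence intervals were -0.10 to 0.45 and -0.15 to 0.21. Itgb2 (chromosome 10, 77530252 to 77565708, plus strand) was at 124, 134, 56.9, and 118 FPKM in Th0, 163, 164, 60.9, and 180 FPKM in Th17, and 248, 229, 115, and 261 FPKM in iTreg cells. In iTreg cells 3 libraries were above all Th0 libraries, and M42_4, at 115 FPKM, was above M42_1 and below the other Th0 libraries. Within headings, Itgb2 was 1.73 to 2.23 times as high in iTreg as in Th0 cells and 1.07 to 1.52 times as high in Th17 as in Th0 cells. The iTreg log2 fold change of 0.99 had an adjusted p of 0.080 from limma without a heading term and 0.00020 with it (95% confidence interval 0.80 to 1.18). The Th17 log2 fold change of 0.35 had an adjusted p of 0.59 and 0.037 from limma, and with the term it was lost when the M22, M29, or M43 libraries were left out (adjusted p up to 0.12 from limma). Itgb2 of iTreg cells passed the threshold without the term when M42_4 was left out (1.26, adjusted p = 0.026 from limma).

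Itgav encodes αV, the chain of the vitronectin receptors and of the integrins that release TGFβ, and lies on chromosome 2 from 83724397 to 83806916 on the plus strand, with 5.90% of its exonic bases shared with Gm13684. It was at 7.40, 7.89, 3.62, and 8.85 FPKM in Th0 cells and 6.46, 7.61, 4.30, and 10.9 FPKM in Th17 cells, with no common direction within headings. In iTreg cells it was at 16.3, 15.3, 7.61, and 18.0 FPKM. The iTreg values were 1.96 to 2.23 times the Th0 values within headings, and only M42_4 lay within the Th0 range. The iTreg log2 fold change of 0.95 had an adjusted p of 0.068 from limma without a heading term and 0.00012 with it (95% confidence interval 0.80 to 1.11). The Th17 log2 fold change was 0.06 (adjusted p = 0.91 and 0.64 from limma, interval -0.18 to 0.31 with the term). Leaving out M42_4 brought Itgav of iTreg cells past the threshold without the term (1.21, adjusted p = 0.019 from limma).

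Itgb3 encodes β3, which forms the vitronectin receptor with αV, and lies on chromosome 11 from 104608000 to 104670476 on the plus strand. It was at 5.22, 4.10, 1.44, and 4.08 FPKM in Th0, 1.99, 1.28, 0.770, and 3.61 FPKM in Th17, and 0.729, 2.03, 0.250, and 0.870 FPKM in iTreg cells. The Th0 values rest on 226, 186, 77, and 220 reads and the iTreg values on 46, 116, 13, and 45 reads. Every polarized library was below the Th0 library of its heading, and the groups overlapped through M42_1. For the iTreg comparison, Itgb3 passed the filter on low values through its Th0 libraries, since only M29_4 of the iTreg libraries exceeded 1 FPKM. In iTreg cells the log2 fold change was -1.24 (95% confidence interval -2.01 to -0.47, adjusted p = 0.037 from limma, 0.0020 with a heading term). That call was lost with a pseudocount of 0.1 (adjusted p = 0.052 from limma) and, without the term, when M22_1, M22_4, M29_1, M42_4, M43_1, or M43_4 was left out (adjusted p 0.080 to 0.10 from limma). In Th17 cells the log2 fold change was -0.71, with an adjusted p of 0.21 from limma without the term and 0.023 with it (-1.14 to -0.27). The Th17 call with the term was lost without the M22 or the M29 libraries. M43_5, the Th17 library with Foxp3, had the highest Itgb3 of the Th17 libraries, and without it the log2 fold change was -0.96 (adjusted p = 0.097 from limma).

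Itga6 encodes α6, a laminin receptor chain, and lies on chromosome 2 from 71745616 to 71858416 on the plus strand. It was at 24.5, 32.0, 7.72, and 15.6 FPKM in Th0, 21.7, 22.1, 9.08, and 28.2 FPKM in Th17, and 22.2, 23.4, 7.89, and 19.5 FPKM in iTreg cells. The direction within headings was split 2 against 2 in both comparisons. The log2 fold change was 0.08 in Th17 and -0.04 in iTreg cells (adjusted p = 0.92 and 0.97 from limma). With a heading term the 95% confidence intervals were -0.41 to 0.58 and -0.33 to 0.24, so a change of the size of that of Itgav in iTreg cells lies outside both.

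In all, 2 of the 9 genes were DE in Th17 cells (Itgae up-regulated and Itga4 down-regulated), where 19.3% of all 10269 tested genes were DE. In iTreg cells 3 of the 9 were DE (Itgae up-regulated, Itga4 and Itgb3 down-regulated), where 16.6% of 10208 tested genes were. With a heading term, 6 of 9 were DE in Th17 cells, where 37.8% of all tested genes were (19.2% higher and 18.6% lower): Itgae, Itgb7, and Itgb2 were up-regulated and Itga4, Itgb1, and Itgb3 down-regulated. With the term, 6 of 9 were also DE in iTreg cells, where 40.9% of all tested genes were (20.9% higher and 20.0% lower): Itgae, Itgb1, Itgb2, and Itgav were up-regulated and Itga4 and Itgb3 down-regulated. The 6 iTreg calls were kept when the libraries of any 1 heading were left out, whereas 3 (without M22), 4 (without M29), or 5 (without M42 or without M43) genes were DE in Th17 cells. Only Itgae and Itga4 had groups that did not overlap, in both comparisons (p = 0.0286 from a two-sided exact permutation test, the smallest value possible with 4 libraries a group), and 23.8% of all tested genes did so in the Th17 and 22.8% in the iTreg table. The direction was the same within all 4 headings for 6 of 9 genes in Th17 and 6 of 9 in iTreg cells, and for 55.3% and 56.6% of all tested genes. The median log2 fold change was 0.08 over the 9 genes and -0.00071 over all tested genes in Th17 cells, and 0.13 and 0.01 in iTreg cells.

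**Figure D3:**
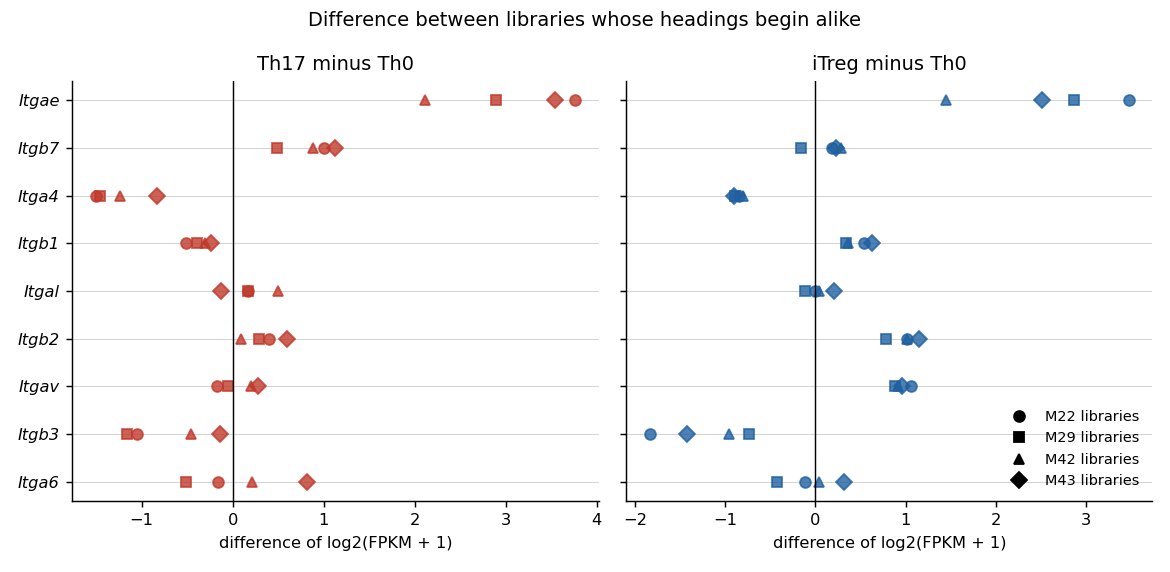
Difference of log2(FPKM + 1) between the Th17 (left) or iTreg library (right) and the Th0 library with the same beginning of the heading, for each integrin subunit gene. All 4 differences of Itgb1 lie below 0 in Th17 cells (-0.51 to -0.24) and above 0 in iTreg cells (0.34 to 0.63), and those of Itga4 in iTreg cells lie between -0.91 and -0.81.

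The mRNA ratio of an α chain to a β chain within a library is free of any factor that scales the whole library, and it is given as a description without a test. The shift of the M42 libraries is not such a factor, since it differed between subunits, and the ratios still hold that difference. The ratio of Itgae to Itgb7 had a median of 0.0142 in Th0 libraries (0.00383 to 0.0181), 0.151 in Th17 libraries (0.120 to 0.206), and 0.186 in iTreg libraries (0.102 to 0.298). The ratio of Itga4 to the same β chain moved the other way, from 0.0997 in Th0 libraries (0.0795 to 0.137) to 0.0136 in Th17 (0.0110 to 0.0211) and 0.0401 in iTreg libraries (0.0366 to 0.0446). The highest of the Th0 ratios, 0.137, was that of M42_1. In FPKM, Itga4 thus exceeded Itgae in the Th0 libraries, and Itgae exceeded Itga4 in all 8 polarized libraries. Itga4 relative to Itgb1 had medians of 0.157, 0.0505, and 0.0488 in Th0, Th17, and iTreg libraries, with all polarized libraries at 0.0713 or lower and all Th0 libraries at 0.128 or higher.

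For LFA-1, Itgal relative to Itgb2 had a median of 1.25 in Th0 libraries (1.04 to 1.33), 1.12 in Th17 libraries (0.776 to 1.38), and 0.649 in iTreg libraries (0.521 to 0.672). M42_5 had the highest ratio among Th17 libraries and M42_4 the lowest among iTreg libraries. In FPKM, the β chain thus exceeded its only α partner among the 9 genes in all iTreg libraries, and in none of the Th0 libraries. Whether such a ratio lies above or below 1 depends on the transcript lengths behind the FPKM, which are not stated. The shift of a ratio between groups does not depend on a fixed length. Itgav relative to Itgb3 rose from a median of 2.05 in Th0 libraries (1.42 to 2.51) to 4.41 in Th17 libraries (3.03 to 5.96). In iTreg libraries the median was 21.5 (7.53 to 30.5), and the 3 groups did not overlap. The iTreg ratios rest on only 13 to 116 reads of Itgb3, and the highest was that of M42_4, with 13 reads. Itgav relative to Itgb1 had medians of 0.242, 0.357, and 0.366, and Itga6 relative to Itgb1 of 0.623, 0.899, and 0.433. Itgav relative to Itgb1 overlapped between Th0 (0.216 to 0.301) and Th17 libraries (0.272 to 0.387) but not between Th0 and iTreg libraries (0.308 to 0.463), and Itga6 relative to Itgb1 overlapped between Th0 and both polarized groups.

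**Figure D4:**
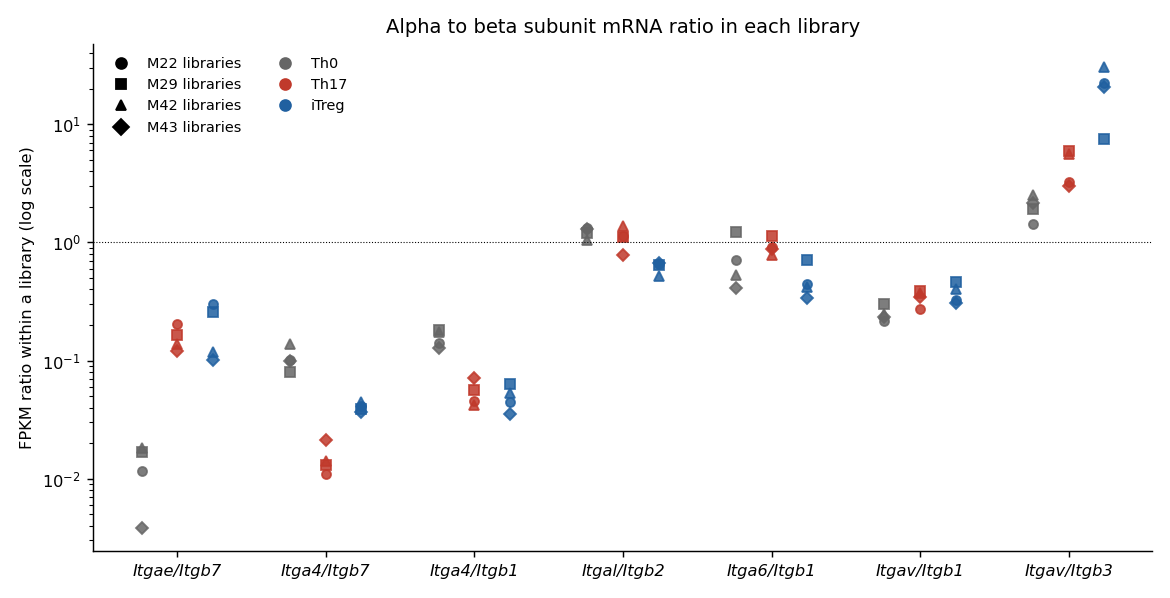
FPKM ratio of an α to a β chain within each library (log axis), in Th0 (grey), Th17 (red), and iTreg (blue) libraries, with marker shapes for the beginning of the column heading. Itgae/Itgb7 and Itga4/Itgb7 moved in opposite directions in the polarized libraries, and Itgal/Itgb2 was below 1 in all 4 iTreg libraries (0.521 to 0.672).

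Of the summed FPKM of the 4 β chains, Itgb2 held a median of 59.1% in Th0 (56.6 to 62.4%), 56.7% in Th17 (55.7 to 60.9%), and 71.3% in iTreg libraries (69.3 to 73.6%). Itgb7 held 23.1% in Th0 (20.1 to 26.7%), 32.7% in Th17 (31.3 to 34.1%), and 15.2% in iTreg libraries (14.2 to 16.7%), without overlap between any groups. Itgb1 held 16.1%, 9.08%, and 13.1%, and Itgb3 1.89%, 0.705%, and 0.219%. Shares add up to the same total in each library, so a larger share of one chain lowers those of the others. Among the 5 α chains, Itgal held at least 72.0% in every library. Itgae held 0.363% in Th0, 6.41% in Th17, and 5.01% in iTreg libraries, and Itga4 2.52%, 0.480%, and 1.02%. The share of Itgav was 4.34% in Th0 (3.67 to 4.92%), 3.78% in Th17 (2.76 to 5.65%), and 7.87% in iTreg libraries (7.44 to 9.61%).

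**Figure D5:**
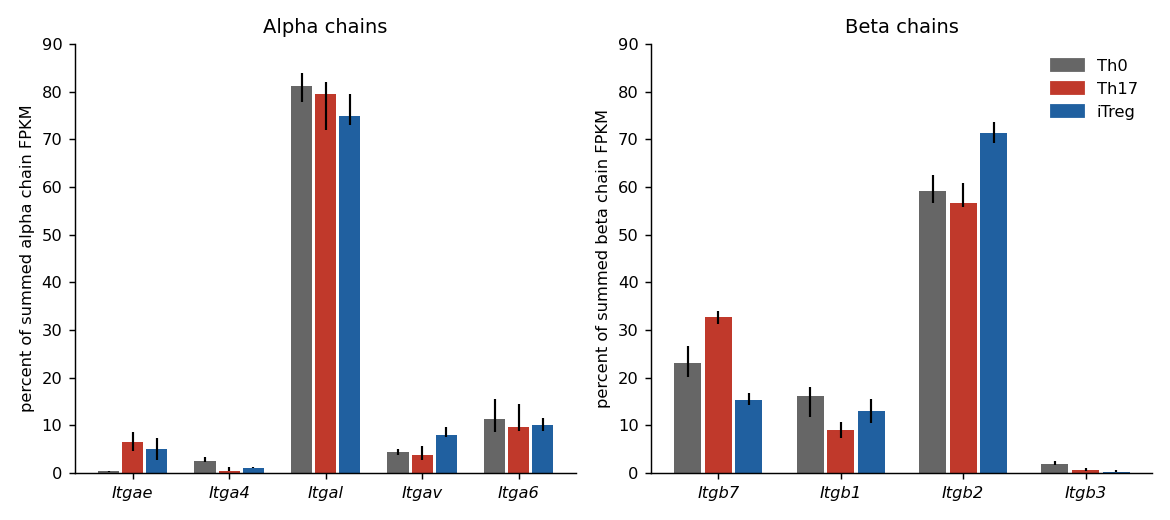
Median percent of the summed FPKM of the 5 α chains (left) and the 4 β chains (right) that each gene held in Th0, Th17, and iTreg libraries, with lines from the lowest to the highest of 4 libraries. Itgb7 took a larger share in Th17 libraries (32.7%) and Itgb2 in iTreg libraries (71.3%) than in Th0 libraries (23.1% and 59.1%).

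A further list held 17 genes, which were other integrin subunits and the integrin β-like gene Itgbl1. Of these, 7 were listed in the Th17 and 5 in the iTreg table, and 4 were tested in each. Itga3, a laminin receptor chain that pairs with β1, was up-regulated in Th17 cells, from 1.66 ± 0.785 to 5.55 ± 1.39 FPKM (SD, n = 4 each), a log2 difference of 1.31 (adjusted p = 0.0044 from limma) and no overlap between the groups. In iTreg cells its log2 fold change was -0.16 (adjusted p = 0.66 from limma). Itga5, the fibronectin receptor chain, had a log2 fold change of 0.56 in iTreg cells (adjusted p = 0.21 from limma, 0.014 with a heading term and 0.057 with the term but without the M42 libraries) and 0.04 in Th17 cells (adjusted p = 0.93 from limma). Itga2b, the platelet αIIb chain, and Itga10, a collagen receptor chain, had log2 fold changes of 0.10 and 0.07 in Th17 and 0.14 and -0.15 in iTreg cells, none past the threshold in either fit. Itga9, the α chain most like α4, was filtered out as too low. It was at 0.467 to 4.01 FPKM in Th0, 0.146 to 0.259 FPKM in Th17, and 0.0775 to 0.189 FPKM in iTreg libraries, without overlap. The Th0 value of 4.01 FPKM came from M22_1 alone, and the other Th0 libraries had at most 1.66 FPKM. Itga7 and the myeloid chain Itgam, listed only in the Th17 table, stayed at or below 1.83 and 0.628 FPKM.

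The genes that act with integrins were read from lists of ligands, inside-out activation genes, adaptors, inhibitors, partners, and latent TGFβ. The inside-out activation list holds genes that support this activation and genes that turn it off. Among 20 of its genes tested in Th17 cells, 1 was up-regulated and 4 down-regulated, against 10.6% and 8.69% of all tested genes. Skap2, an adaptor in the pathway from antigen receptors to integrins, rose from 4.69 ± 1.97 to 19.4 ± 1.86 FPKM (SD, n = 4 each; log2 fold change 1.89, adjusted p = 0.00036 from limma). Rasgrp1, an exchange factor for Ras, and the kinase Stk4 (Mst1) fell, with log2 fold changes of -0.79 (adjusted p = 0.032 from limma) and -0.52 (adjusted p = 0.012 from limma). In iTreg cells, none of 20 tested genes of this list was up-regulated and 5 were down-regulated, against 8.36% and 8.21% of all tested genes. The Rap GTPase-activating protein Sipa1l1 (log2 fold change -0.92, adjusted p = 0.0032 from limma), the T cell adaptor Skap1 (-0.59, adjusted p = 0.0095 from limma), and Rap1a itself (-0.50, adjusted p = 0.046 from limma) were among them. Sipa1l1 turns Rap signalling off, whereas Skap1 and Rap1a support it. The call of Rasgrp1 was lost without M22_1, M29_1, M29_5, M42_1, or M43_1 (adjusted p up to 0.085 from limma), and that of Rap1a without any library except M42_4 (up to 0.12) or with a pseudocount of 0.1 (0.054).

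Of 24 adhesion adaptors and kinases tested in Th17 cells, 7 were up-regulated and 4 down-regulated, against 10.6% and 8.69% of all tested genes. Of 23 tested in iTreg cells, 3 were up-regulated and 4 down-regulated, against 8.36% and 8.21%. Lpxn (leupaxin, a paxillin relative of leukocytes) rose from 31.8 ± 12.2 to 197 ± 47.5 FPKM in Th17 cells (SD, n = 4 each; log2 fold change 2.64, adjusted p = 0.00029 from limma). In iTreg cells Lpxn had a log2 fold change of 1.06 (adjusted p = 0.061 from limma, 0.00018 with a heading term). Of the tensins, which link β chain tails to actin, Tns4 rose in Th17 cells (log2 fold change 2.14, adjusted p = 0.00017 from limma). Tns1 fell in Th17 cells (-1.87, adjusted p = 0.00029 from limma). It was at 0.250 to 1.29 FPKM in Th17 libraries and passed the filter on low values through its Th0 libraries (3.72 to 5.85 FPKM). Tns4 was at 0.0225 to 0.0803 FPKM in Th0 libraries and passed the filter on low values only through the Th17 libraries. In iTreg cells the kinase Src rose from 0.367 ± 0.121 to 7.20 ± 1.76 FPKM (SD, n = 4 each; log2 fold change 2.56, adjusted p = 3.6e-05 from limma), the focal adhesion kinase Ptk2 rose (0.73, adjusted p = 0.0042 from limma), and the actin crosslinker Actn1 fell (-1.02, adjusted p = 0.019 from limma). Src did not exceed 0.455 FPKM in Th0 libraries and passed the filter only through the iTreg libraries. Of 7 integrin inhibitors tested, 1 rose and 1 fell in Th17 cells: Flna, the filamin that competes with talin (0.65, adjusted p = 0.013 from limma), and Itgb1bp1, which binds the β1 tail (-0.42, adjusted p = 0.036 from limma), where 10.6% and 8.69% of all tested genes did. In iTreg cells 2 of 7 rose, against 8.36% of all tested genes, namely Cytip (0.46, adjusted p = 0.021 from limma) and its partner Cyth1 (0.81, adjusted p = 0.0037 from limma), and 0 fell. Cyth1 encodes cytohesin, which binds the β2 tail and is itself known to promote adhesion through LFA-1, while Cytip draws it away from the membrane. Calls were lost for Itgb1bp1 without any library except M29_1 or M42_5 (adjusted p up to 0.10 from limma) and, with a heading term, without the M22, M42, or M43 libraries (0.062, 0.053, and 0.055), for Actn1 without M22_1 (0.055), and for Cytip without M22_4, M29_4, or M43_1 (up to 0.064).

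Among 8 ligands tested in Th17 cells, 1 was DE, Jam3, which fell (log2 fold change -0.87, adjusted p = 0.0062 from limma), where 19.3% of all tested genes were DE. It also fell in iTreg cells (-0.67, adjusted p = 0.0497 from limma), where Cd47 rose (0.66, adjusted p = 0.031 from limma), and these were 2 of 7 ligands tested, where 16.6% of all tested genes were DE. Jam3 was below 1 FPKM in all polarized libraries and passed the filter only through the Th0 libraries. The iTreg call of Jam3 was lost without any library except M29_4 or M42_4 (adjusted p up to 0.13 from limma), with a pseudocount of 0.1 (0.059), or in limma with trend (0.060), and that of Cd47 without M22_1, M22_4, M29_1, M42_1, or M43_4 (up to 0.086). Both passed the test with a heading term (0.013 and 0.0010). The ligands Vcam1, Madcam1, Cdh1, and Fn1 were not listed in either table. Of 11 integrin-associated membrane proteins tested in Th17 cells, 1 rose and 1 fell, against 10.6% and 8.69% of all tested genes, and of 11 tested in iTreg cells 2 rose and 0 fell, against 8.36% and 8.21%. Sema7a, a GPI-anchored semaphorin that binds integrins, rose in Th17 (log2 fold change 3.004, adjusted p = 0.00043 from limma) and in iTreg cells (2.39, adjusted p = 0.0010 from limma). Cd226, a receptor that associates with LFA-1, fell in Th17 cells from 14.4 ± 5.65 to 0.413 ± 0.238 FPKM (SD, n = 4 each; log2 fold change -3.39, adjusted p = 5.9e-05 from limma). Its Th17 values did not exceed 0.641 FPKM, so that it passed the filter only through the Th0 libraries. Cd47 was on this list as well as among the ligands, and beside Sema7a it was the other gene that rose in iTreg cells.

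The median log2 fold change in Th17 cells was 0.02 for inside-out activation genes, 0.20 for adaptors and kinases, and 0.15 for inhibitors. It was -0.48 for ligands, -0.58 for associated membrane proteins, and -0.58 for the latent TGFβ genes described next. Over all tested genes it was -0.00071. In iTreg cells these medians were -0.19, 0.02, 0.15, 0.29, 0.10, and 1.44, where it was 0.01 over all tested genes. With a heading term, the inside-out activation genes counted 2 higher and 6 lower in Th17 and 0 higher and 9 lower in iTreg cells. In the same order, the adaptors and kinases counted 8 and 6 and then 7 and 5. The ligands counted 1 and 4 and then 4 and 2, and the inhibitors 1 and 1 and then 2 and 0. The associated proteins counted 3 and 7 and then 4 and 3, and the latent TGFβ genes 1 and 1 and then 3 and 1. These counts stand against the shares of all tested genes given above for that fit.

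The latent TGFβ genes bear on the αV integrins, which release the cytokine from its complex. Of 4 tested, 1 rose and 1 fell in Th17 cells, against 10.6% and 8.69% of all tested genes, and 3 rose and 0 fell in iTreg cells, against 8.36% and 8.21%. Lrrc32 (GARP), which holds latent TGFβ on regulatory T cells, rose in iTreg cells from 2.96 ± 2.15 to 19.1 ± 6.70 FPKM (SD, n = 4 each; log2 fold change 2.44, adjusted p = 0.0031 from limma). Tgfb1 itself rose in iTreg cells (0.45, adjusted p = 0.016 from limma), and Furin, the protease that cleaves its precursor, rose in Th17 (2.77, adjusted p = 2.8e-05 from limma) and iTreg cells (2.42, adjusted p = 0.00015 from limma). Nrros, which holds latent TGFβ on myeloid cells, fell in Th17 cells (-1.46, adjusted p = 0.0035 from limma). In iTreg cells its log2 fold change was -0.67 (adjusted p = 0.11 from limma), and with a heading term it fell (adjusted p = 0.0023 from limma), with differences of -0.97 to -0.47 within the 4 headings.

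The genes whose log2(FPKM + 1) followed a member most closely over the 8 libraries of a table are given as a description, since the libraries share their groups and headings. For Itgae of the Th17 table they were Smad7, Sbk1, and Crispld2 (Pearson r 0.99 for each), and for Itga4 they were Thoc5, Ifnar1, and Rnf24 (0.996, 0.99, and 0.988). In the iTreg table they were Rnf208, Mmp11, and Slc22a5 for Itgae (0.99, 0.98, and 0.98) and Cd69, Enpp4, and Trim14 for Itgb3 (0.99, 0.98, and 0.98).

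Other cell types that carry integrins were checked by their markers. Of 8 myeloid markers, 2 were listed in the Th17 table (Cd68 and Itgam), with a sum of 3.34 to 5.03 FPKM in Th0 and 5.58 to 16.5 FPKM in Th17 libraries, and 1 in the iTreg table, with 3.19 to 4.86 FPKM in Th0 and 2.61 to 7.19 FPKM in iTreg libraries. Cd68, the only one tested, had a log2 fold change of 0.88 in Th17 cells and passed the threshold only with a heading term. In iTreg cells its log2 fold change was 0.12, past the threshold in neither fit. Lyz2, Csf1r, and Adgre1, which define macrophages and monocytes, were not listed. Of 6 dendritic cell markers, 2 and 1 were listed, with sums of at most 1.68 FPKM. Of 7 platelet and megakaryocyte markers, Itga2b alone was listed, at 0.195 to 1.83 FPKM over all libraries, and Pf4 and Ppbp were not. Cd8b1, which marks CD8+ T cells, was at 2.52 to 6.60 FPKM in Th0, 3.22 to 5.89 FPKM in Th17, and 2.19 to 5.52 FPKM in iTreg libraries, and Cd8a was not listed. The part of such cells in the integrin values was not tested.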

How the data were processed

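RNA-seq of 12 libraries (4 Th0, 4 Th17, 4 iTreg) was analysed. The authors aligned reads with TopHat2 2.0.14 to mm10, counted them on exons with HTSeq without the strand, removed genes that did not exceed 1 CPM in at least 4 samples, and tested counts with edgeR. The deposited tables hold FPKM for 8 libraries each, scaled separately (Th0 values differ by a factor of 0.988 to 0.991), beside the authors' log2 fold changes, log2 average CPM, likelihood ratios, p-values, and FDR, none of which were used. The sources used here do not say how FPKM were calculated.

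Genes over 1 FPKM in at least 4 of 8 libraries entered limma 3.58.1 (R 4.3.3) as log2(FPKM + 1) with an FDR threshold of 0.05, after a check on simulated data with known changes. Figures and tallies used Python 3.11.15, numpy 2.4.6, pandas 2.3.3, and matplotlib 3.10.9. Single genes were also compared with exact permutation tests (70 arrangements). The study's pair-wise design was not fitted by experiment, because headings carry no experiment number. Libraries with a shared heading correlated in their deviations from group means at 0.450 to 0.784 (Th17 table) and 0.662 to 0.769 (iTreg table), so a heading term served as replicate block. Alternatives were a pseudocount of 0.1, no filter, a filter of 5 FPKM, limma with trend, an FDR of 0.01, rescaled libraries, and left-out libraries. Leaving out both libraries of a heading under the block was added after seeing the data.

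The integrin genes and all lists were chosen with earlier results of these data known. Named are all 10 members, every other integrin subunit listed, up to 3 DE genes with the largest fold changes per pathway list and table, and the 3 genes most like the 2 most changed members of a table. Whole reads per gene were recovered from FPKM steps and matched between tables for 99.3% of 10885 genes in all Th0 libraries. They served for depth and for the read numbers given with some genes, not for tests. Recovered reads on the listed genes numbered 7182208 to 10628620 per library.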

Additional observations from a re-analysis of the deposited data

Results flagged for a closer look

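In 8 of the 27 groups of 4 libraries (9 genes in 3 groups), the lowest library stood apart from the other 3 on the log2(FPKM + 1) scale. The gap was above Dixon's 95% critical value, which chance gives in about 1 of 20 groups when gaps at either end are counted. All 8 were libraries whose heading begins with M42, so they are not 8 independent events. How many of all tested genes had such a gap was not counted. Itgal was at 59.3 FPKM in the Th0 library M42_1 (others 153 to 165 FPKM) and at 60.1 FPKM in the iTreg library M42_4 (others 147 to 175 FPKM). Its partner Itgb2 was at 56.9 FPKM in M42_1 (others 118 to 134 FPKM), 60.9 FPKM in the Th17 library M42_5 (others 163 to 180 FPKM), and 115 FPKM in M42_4 (others 229 to 261 FPKM). Itga4 was at 2.52 FPKM in M42_1 (others 4.75 to 4.86 FPKM) and 0.993 FPKM in M42_4 (others 2.07 to 2.23 FPKM), and Itgb7 was at 22.3 FPKM in M42_4 (others 53.0 to 56.6 FPKM).

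Itgb1 moved in opposite directions in the polarized groups within every heading. The mean log2 difference from Th0 was -0.36 in Th17 cells (-0.51 to -0.24) and 0.47 in iTreg cells (0.34 to 0.63). The difference between the groups was not tested. Both comparisons share the Th0 libraries, and the values were scaled separately, so that Th0 values differ by a factor of 0.988 to 0.991.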

How the results depend on the processing

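The log2 fold changes of Itgae in both comparisons and of Itga4 in Th17 cells kept their direction and their side of the threshold under every alternative in which they were tested. With the replicate block on the heading, DE genes numbered 3882 in Th17 and 4170 in iTreg cells in place of 1983 and 1691, and DE integrin genes 6 and 6 in place of 2 and 3. The block changed no other call among the subunits than those given with the results. At an FDR of 0.01, DE genes numbered 995 and 778, and 2 integrin genes were DE in Th17 and 1 in iTreg cells. With a filter of 5 FPKM in at least 4 libraries, 0 integrin genes were DE in either comparison, since Itgae, Itga4, and Itgb3 were not tested under it. With each library left out, DE genes ranged from 1364 (without M22_5) to 2237 (without M42_5) in Th17 and from 1140 (without M22_4) to 1521 in iTreg cells, and DE integrin genes from 2 to 3 and from 1 (without M22_1, M29_1, or M43_1) to 3. Under the block without both libraries of a heading, DE genes ranged from 2578 (without M22) to 3585 (without M29) in Th17 cells and were 2892, 3748, 3022, and 3258 in iTreg cells without M22, M29, M42, and M43, and integrin genes from 3 to 5 in Th17 cells, with 6 in iTreg cells each time.

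The direction of some changes that were not called turned with single libraries left out, and the cause was not tested. In Th17 cells the log2 fold change ranged from -0.18 to 0.42 for Itgal, -0.18 to 0.26 for Itgav, -0.28 to 0.41 for Itga6, -0.048 to 0.25 for Itga2b, -0.16 to 0.18 for Itga5, and -0.090 to 0.26 for Itga10. In iTreg cells it ranged from -0.23 to 0.45 for Itgb7, -0.32 to 0.39 for Itgal, -0.41 to 0.29 for Itga6, -0.052 to 0.36 for Itga2b, -0.27 to 0.023 for Itga3, and -0.31 to 0.040 for Itga10. Under the block, it turned to -0.0059 (Itgav), -0.064 (Itga5), and -0.16 (Itga6) in Th17 cells and -0.025 (Itgal) in iTreg cells without the M43 libraries, to -0.026 (Itga10, Th17) without the M22 libraries, and to 0.082 (Itga6, iTreg) without the M29 libraries. Rescaling the libraries moved the median over all tested genes by less than 0.1. Counting error limits Itgae in Th0 cells (8 to 36 reads) and Itgb3 in iTreg cells (13 to 116 reads).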
